A study of Danio rerio with 60 samples.

Results

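LIPG and si:dkey-61n16.5 are 2 genes of zebrafish larvae, 2 of the 27281 genes in the raloxifene table and of the 27488 in the resorcinol table. They were chosen by symbol because both had been called higher at the top dose of both compounds, 20.1 µM raloxifene and 405 µM resorcinol, in a fit that took replicate numbers as a block (a term that removes what pools of 1 number share). Without the block only si:dkey-61n16.5 at 405 µM was called, and LIPG was called at neither top dose. The top-dose values below are therefore a description, given without a test. Each symbol matched 1 identifier, ENSDARG00000031044 for LIPG and ENSDARG00000099695 for si:dkey-61n16.5. Both genes were read in every library: LIPG had at least 112 reads and si:dkey-61n16.5 at least 159.

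LIPG encodes endothelial lipase, known from mammals as a secreted enzyme of the lipoprotein lipase family. It sits on the surface of blood vessels, where it cleaves mainly the phospholipids of high-density lipoprotein. Its activity in mammals is held down by angiopoietin-like proteins. The reference table gives si:dkey-61n16.5 a clone-based name and no function, so no role is stated for it.

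Larvae of the AB/Tub strain were kept in buffered E3 medium with the compound between 72 and 120 hours after fertilization, and each library came from 20 pooled whole larvae. The doses of raloxifene, which modulates estrogen receptors in a tissue-dependent way, were 0.00201, 0.0201, 0.201, 2.01 and 20.1 µM, with a control that had 0.5% of a carrier the labels do not name. Those of resorcinol, a phenol that inhibits thyroid peroxidase, were 0.0405, 0.405, 4.05, 40.5 and 405 µM, with a control that had 1% carrier. Sample descriptions mark the top dose of each compound as EC20. Titles and descriptions of the dosed pools give no carrier percentage. Each of the 12 groups had 5 pools, numbered 1 to 5, and the question of the study was at which dose expression departs from that of the carrier pools. Since nothing in the labels ties pools to separate spawnings, p-values cover only the spread between these pools. In title and treatment the resorcinol doses are labelled with raloxifene's short name, and they were grouped by their description.

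Values are normalized counts, that is read counts divided by 1 factor per library, and the 2 tables were normalized separately. The raloxifene libraries held 7.44 to 10.98 M reads. The resorcinol libraries held 7.78 to 12.13 M, apart from 405 µM replicate 1 with 30.74 M. Pools with the same number deviated from their group means together in all 75 pairs of each compound, so every comparison was fitted with and without the block. A pair of resorcinol libraries stood apart. Over the 62 other genes called at 405 µM with the block, the median shift in the direction of the 405 µM change was 0.11 (log2) in 40.5 µM replicate 3, while the other 40.5 µM pools had 0.39 to 0.65. For replicate 3 of 4.05 µM this shift reached 0.48, and the remaining pools of that dose had 0.062 to 0.24. The 40.5 and 4.05 µM differences of both genes from control, and of 40.5 µM from the lower doses, are given with and without these libraries.

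LIPG was about 1.6 times as high at the top dose of either compound as in its control. At 20.1 µM raloxifene, replicates 1 to 5 had 275, 385, 210.05, 297 and 258 normalized counts, and the control pools had 291, 223, 125, 182 and 104. Replicates 2 and 4 lay above the highest control pool, and the groups overlapped: treated replicate 3 was below control replicates 1 and 2, and treated replicates 1 and 5 below control replicate 1. The means were 285 ± 64.3 at 20.1 µM and 185 ± 75.5 in controls (SD, n = 5 each), a fitted 1.61-fold difference (log2 0.69, SE 0.27, or 0.15 with the block). In replicate 1 the treated pool was at 0.948 times its same-number control, and in the other pairs the ratio was 1.63 to 2.48.

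At 405 µM resorcinol, replicates 1 to 5 had 429, 332, 308, 333 and 189.6 normalized counts of LIPG, and the control pools had 203, 249.8, 234, 217 and 114. Here 4 of the 5 treated pools lay above every control pool, and replicate 5 was the lowest in both groups. The means were 318 ± 85.6 at 405 µM and 203 ± 53.1 in controls (SD, n = 5 each), a fitted 1.56-fold difference (log2 0.65, SE 0.21, or 0.14 with the block). All 5 treated pools exceeded their same-number control, by 1.32 to 2.12 times. Since each library is a pool of whole larvae, more cells that express a gene and more of its RNA per cell cannot be told apart.

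The gene si:dkey-61n16.5 differed more from its control at the top resorcinol dose than at the top raloxifene dose. The doses and the carrier percentages of the controls differ, so the values are set side by side only. At 20.1 µM raloxifene, replicates 1 to 5 had 718, 380.1, 333, 323 and 351 normalized counts, and the control pools had 417, 273, 225, 281 and 189. Replicate 1 was the highest pool of both groups, and the other 4 treated pools lay below control replicate 1. The means were 421 ± 167 at 20.1 µM and 277 ± 86.5 in controls (SD, n = 5 each), a fitted 1.5-fold difference (log2 0.58, SE 0.19, or 0.14 with the block). Without the treated replicate 1 the log2 difference was 0.37. Within same-number pairs the treated pool was higher in 5 of 5, by 1.15 to 1.86 times.

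At 405 µM resorcinol, replicates 1 to 5 had 744, 882, 737, 1324 and 459 normalized counts of si:dkey-61n16.5, and the control pools had 265, 322, 310.1, 495 and 228. Only treated replicate 5 fell within the control range, and it lay below control replicate 4. The means were 829 ± 317 at 405 µM and 324 ± 103 in controls (SD, n = 5 each), a fitted 2.5-fold difference (log2 1.32, SE 0.24, or 0.18 with the block). The 5 same-number ratios were 2.01 to 2.81. The highest treated pool was replicate 1 under raloxifene and replicate 4 under resorcinol for si:dkey-61n16.5, and replicate 2 and replicate 1 for LIPG.

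**Figure D1:**
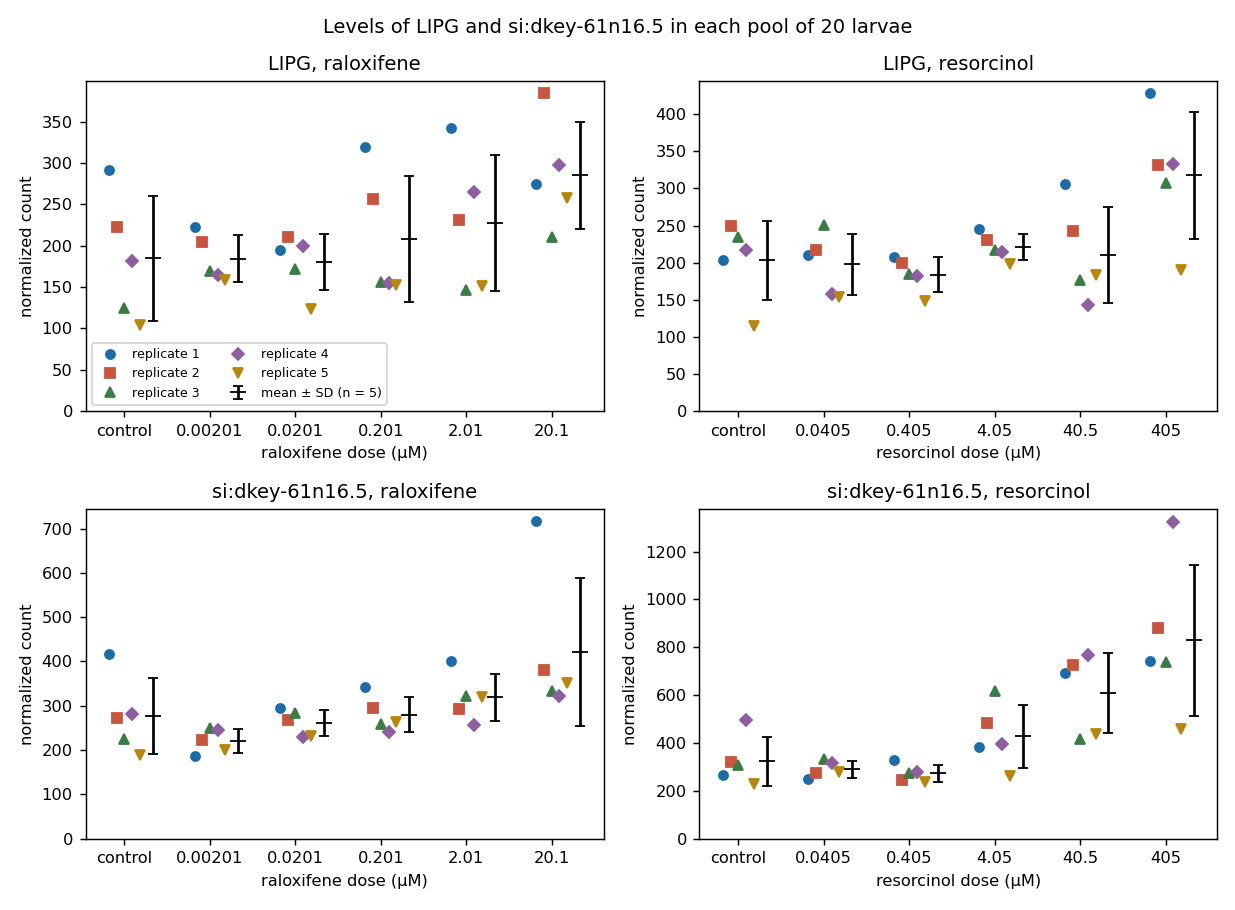
Normalized count (y axis, from 0) of LIPG (top) and si:dkey-61n16.5 (bottom) in each pool, by dose (x axis, µM), for raloxifene (left) and resorcinol (right). Symbols mark the replicate number and bars the mean ± SD of 5 pools; si:dkey-61n16.5 averaged 324 in resorcinol controls, 609 at 40.5 µM and 829 at 405 µM, and LIPG averaged 203, 210.1 and 318 in the same groups.

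At the top doses the fit with the block called 168 genes higher for raloxifene, 0.873% of those tested, and 34 for resorcinol, 0.174%. Without the block the shares called higher were 0.0520% and 0.00511%. With the block 3 genes were called higher for both compounds, LIPG, si:dkey-61n16.5 and prdx1, and 0 were called lower for both. The gene prdx1, named here after its values were seen, encodes a peroxiredoxin, an enzyme that reduces peroxides. It averaged 277 ± 43.9 at 20.1 µM raloxifene and 169 ± 10.1 in controls, and 268 ± 48.3 at 405 µM resorcinol and 148 ± 27.3 in controls (SD, n = 5 each).

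Below the top dose, no LIPG difference from control passed the test in either compound. Under raloxifene the LIPG means were 185 ± 75.5 in controls, 184 ± 28.3 at 0.00201 µM, 180.3 ± 34.2 at 0.0201 µM, 208 ± 76.3 at 0.201 µM, 227 ± 82.2 at 2.01 µM and 285 ± 64.3 at 20.1 µM (SD, n = 5 each). No 2 neighbours in the order of these means were farther apart than the larger of their SDs. The number of pools above their same-number control was 2, 3, 4, 5 and 4 of 5 from the lowest to the highest dose. At 2.01 µM replicates 1 to 5 had 342, 231, 146, 265 and 151 normalized counts, all inside the control range except replicate 1. The 2.01 µM difference from control was 0.32 (log2, 95% interval -0.23 to 0.86, adjusted p = 1 by limma). With the block the interval was 0.012 to 0.62 (adjusted p = 0.488), and the lower doses had adjusted p of 0.727 to 1.

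Under resorcinol the LIPG means were 203 ± 53.1 in controls, 198 ± 41.3 at 0.0405 µM, 184 ± 23 at 0.405 µM, 221 ± 17.7 at 4.05 µM, 210.1 ± 64.3 at 40.5 µM and 318 ± 85.6 at 405 µM (SD, n = 5 each). In this order only the step between 405 µM and 4.05 µM, the second highest mean, was larger than the SDs. At 40.5 µM replicates 1 to 5 had 306, 242, 177, 143 and 183 normalized counts, and 2 of the 5 exceeded their same-number control. The difference of 40.5 µM from control was 0.045 (log2, 95% interval -0.39 to 0.48, adjusted p = 1; with the block -0.25 to 0.34, adjusted p = 0.979). Without replicate 3 of 40.5 and 4.05 µM it was 0.094, and the 4.05 µM difference was 0.17 without these libraries and 0.16 with them (adjusted p = 1 each). Changes of a size within these intervals are compatible with the values of these pools.

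In resorcinol, si:dkey-61n16.5 had means above that of its controls at the 3 highest doses. Its means were 324 ± 103 in controls, 290.3 ± 34.4 at 0.0405 µM, 273 ± 36.7 at 0.405 µM, 428 ± 131 at 4.05 µM, 609 ± 167 at 40.5 µM and 829 ± 317 at 405 µM (SD, n = 5 each). In this order only the step between 40.5 and 4.05 µM exceeded the SDs of its 2 groups. At 40.5 µM replicates 1 to 5 had 692, 726, 419, 769.6 and 437 normalized counts. Replicates 1, 2 and 4 lay above every control pool, and all 5 exceeded their same-number control, by 1.35 to 2.61 times. At 4.05 µM they had 385, 483, 616, 396 and 263, with 4 of 5 above their same-number control and replicate 3 alone above the control range. Replicate 3 was thus the highest of the 4.05 µM pools and the lowest of the 40.5 µM pools, the same libraries that stood apart over the other genes.

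The 40.5 µM difference of si:dkey-61n16.5 from control was 0.91 (log2, SE 0.24, a 1.88-fold difference, limma unadjusted p = 0.000737, adjusted p = 1), higher in 5 of 5 pairs. With the block its adjusted p was under the threshold (SE 0.18, adjusted p = 0.0351). The gene was then the only 1 of 19583 called higher at this dose, 0.00511%. The gene had been chosen by its top-dose difference from these same control pools, and low values in them would raise both differences. The p-values of this comparison, with or without the block, are therefore no independent test, and the call is given as a description. The call held when replicate 3 of 40.5 and 4.05 µM was left out (log2 1.04, adjusted p = 0.000881 with the block), where the gene was 1 of 4 called higher. Without the block the difference was then 1.03 (adjusted p = 0.281). These libraries were picked after the values had been seen. Leaving out the lowest 40.5 µM pool had to raise the difference, so this is no separate support. The call was lost with the block when all pools numbered 1, 2, 4 or 5 were left out (adjusted p = 0.554, 0.628, 0.0995 and 0.216) and by edgeR with the block (adjusted p = 0.0503). At 4.05 µM the log2 difference was 0.40 (adjusted p = 1 with and without the block) and 0.25 without the libraries of replicate 3 that stood apart, and at 0.0405 and 0.405 µM it was -0.11 and -0.21.

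Under raloxifene, si:dkey-61n16.5 averaged 277 ± 86.5 in controls, 221 ± 27.3 at 0.00201 µM, 262 ± 29.6 at 0.0201 µM, 279.7 ± 39.9 at 0.201 µM, 319 ± 53.5 at 2.01 µM and 421 ± 167 at 20.1 µM (SD, n = 5 each). Among neighbours in this order only the 2 lowest doses differed by more than their SDs. At 2.01 µM replicates 1 to 5 had 401, 293, 323, 256 and 321 normalized counts, all within the control range of 189 to 417, and 3 of 5 exceeded their same-number control. The lowest pool of all was 0.00201 µM replicate 1 at 186, which was 0.447 times control replicate 1. No dose below 20.1 µM was called against control (log2 -0.28 to 0.24, adjusted p = 1 by limma, 0.378 to 1 with the block).

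**Figure D2:**
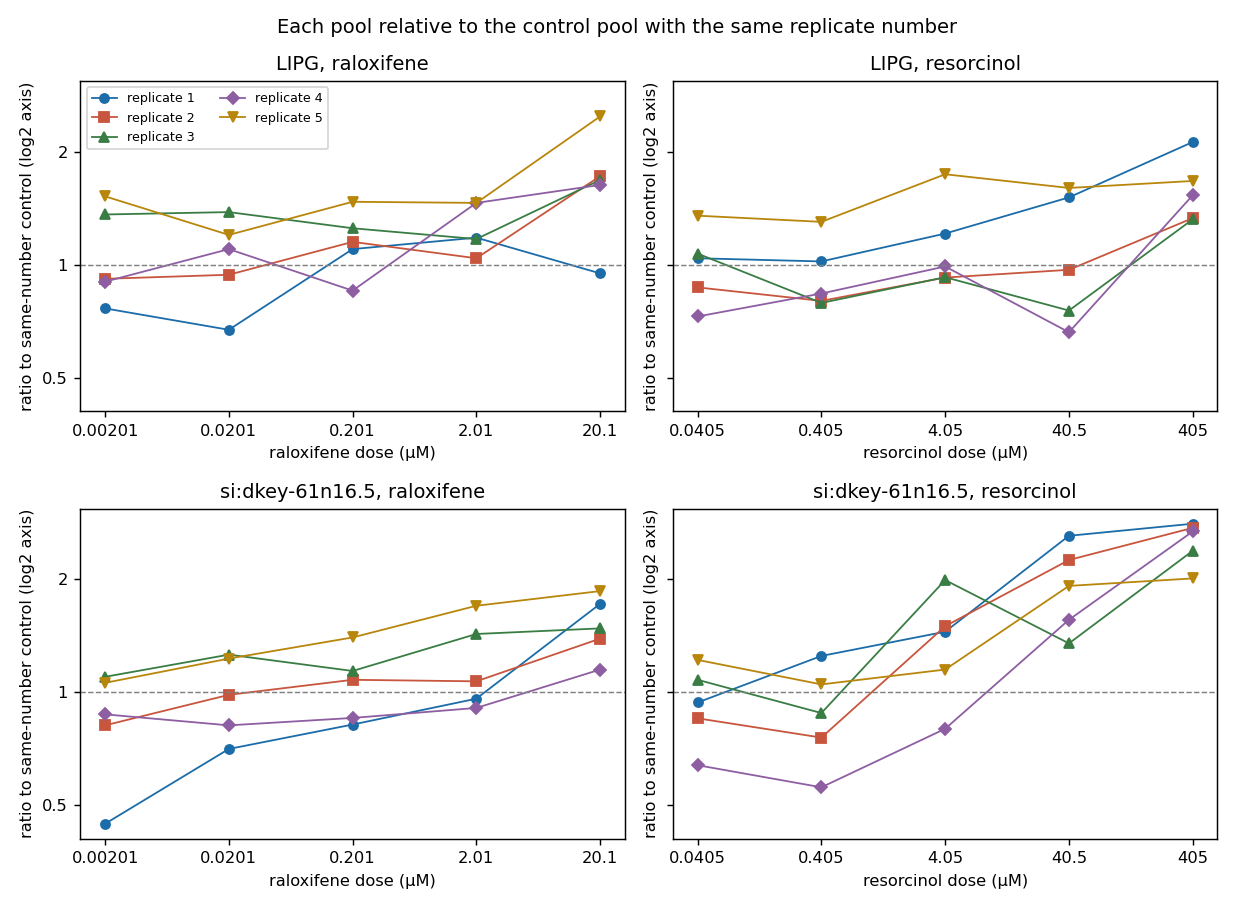
Ratio of each pool to the control pool with the same replicate number (y axis, log2 scale, dashed line at 1) by dose (x axis, µM), for LIPG (top) and si:dkey-61n16.5 (bottom) under raloxifene (left) and resorcinol (right). Lines join pools of 1 replicate number; at 405 µM all 5 lines lie above 1 for both genes, and at 40.5 µM they do so for si:dkey-61n16.5 but for 2 of 5 in LIPG.

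These comparisons with control share the control pools with the top-dose comparison that chose the genes, so their p-values for the genes are not independent of that choice. For the lower doses against control, 0% of the genes tested were called higher without the block in either compound. With the block the shares for raloxifene were 0.0520% at 0.00201 µM, 0% at 0.0201 µM, 0.00520% at 0.201 µM and 0.0156% at 2.01 µM. For resorcinol they were 0% at 0.0405, 0.405 and 4.05 µM. At unadjusted p under 0.05 limma without the block found 60 to 222 genes in each raloxifene comparison below the top dose, and edgeR and DESeq2 called 0 in each. In resorcinol it found 61 to 177, where limma called 1 gene at 40.5 µM, lower, edgeR 0 at any dose below the top and DESeq2 2 genes at 40.5 µM, both lower. With the block limma found 1013 to 2678 genes at unadjusted p under 0.05 for raloxifene and 577 to 1684 for resorcinol. The largest counts in these ranges belonged to the lowest doses, 0.00201 and 0.0405 µM. The top doses had 2363 and 2109, so these counts did not rise steadily with dose. The fit without the block leaves what same-number pools share in the spread. Its few calls and high adjusted p therefore do not show that genes were unchanged.

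A further comparison set the second-highest dose against the mean of the 3 lower doses. No control or top-dose library entered the difference itself. The spread behind SE and p came from the fit of all 30 libraries, so p is not fully independent of the choice of the genes. For si:dkey-61n16.5 in resorcinol, 40.5 µM exceeded the 3 lower doses by 0.89 (log2, SE 0.20, 95% interval 0.48 to 1.29), a 1.85-fold difference. It did not pass limma's test without the block (unadjusted p = 0.000106, adjusted p = 0.234) and passed with it (SE 0.14, interval 0.59 to 1.18, adjusted p = 0.00585). The gene was 1 of 2 called higher with the block, 0.0102% of the genes tested, beside 0% without the block; the other, named after its values were seen, was the calcium-binding protein gene cabp5a at 0.52. Without replicate 3 of 40.5 and 4.05 µM the difference was 1.06 and passed both with and without the block (adjusted p = 3.98e-05 and 0.0313), among 13 and 2 genes called higher. Those libraries were picked after the values had been seen. They held the gene's lowest 40.5 µM and highest 4.05 µM values. Leaving them out therefore had to widen the difference, and these fits are no separate support. DESeq2 and edgeR with the block called the gene (adjusted p = 0.0348 and 0.00717), and edgeR without the block did not (adjusted p = 0.385). With the block the call was lost when the pools numbered 1, 2, 4 or 5 were left out (adjusted p = 0.305, 0.217, 0.0769 and 0.0781), each of which removes 1 of the 5 pairs.

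LIPG did not pass the test in the same comparison. At 40.5 µM resorcinol it was 0.029 (log2, 95% interval -0.33 to 0.39) from the 3 lower doses (adjusted p = 1, and 0.974 with the block), and 0.076 without replicate 3 of 40.5 and 4.05 µM (adjusted p = 1). At 2.01 µM raloxifene the LIPG difference was 0.21 (interval -0.23 to 0.66, adjusted p = 1, and 0.902 with the block). For si:dkey-61n16.5 at 2.01 µM raloxifene it was 0.32 (interval 0.0026 to 0.65, unadjusted p = 0.0483), which did not pass after adjustment (adjusted p = 1, and 0.63 with the block). In raloxifene 0% of genes were called higher in this comparison without the block (139 genes at unadjusted p under 0.05 by limma, 0 calls by edgeR and DESeq2) and 0.0520% with it.

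**Figure D3:**
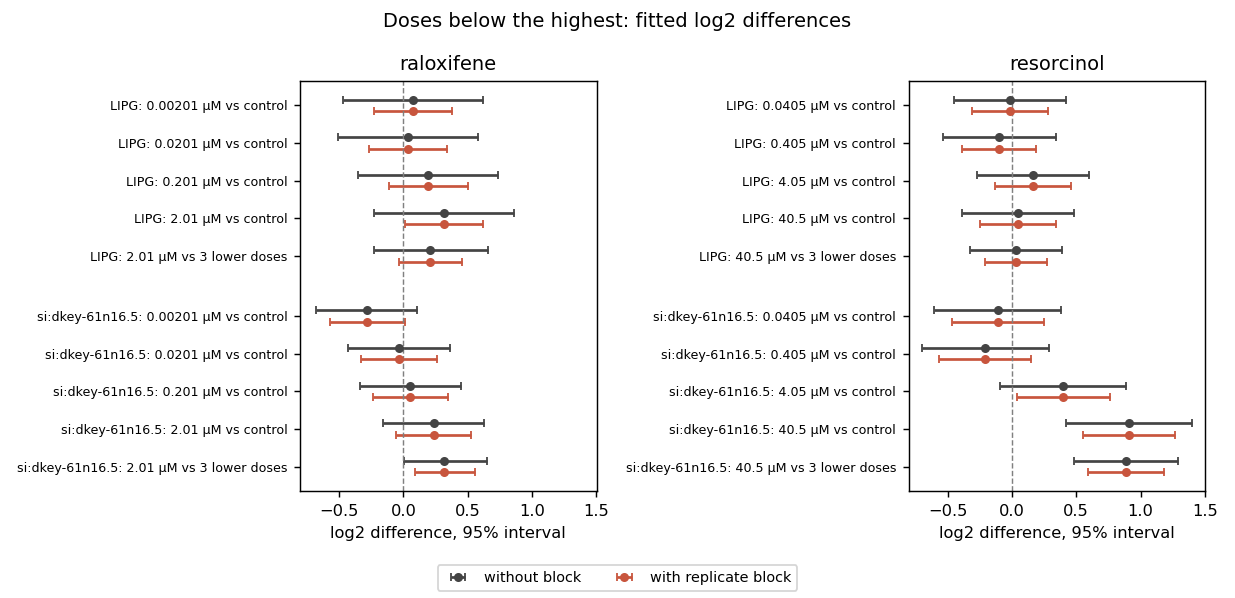
Fitted log2 differences (x axis) with 95% intervals for the doses below the highest, against control and, for the second-highest dose, against the 3 lower doses, for raloxifene (left) and resorcinol (right). Grey is the fit without the block and red the fit with it; for resorcinol the 40.5 µM intervals of si:dkey-61n16.5 lie between 0.42 and 1.40, and those of LIPG span 0.

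Whether the genes separated at 40.5 µM resorcinol was tested on their ratio. The log2 ratio of si:dkey-61n16.5 to LIPG was 0.86 higher at 40.5 µM than over the 3 lower doses (SD 0.46 over 5 replicate numbers, positive in 5 of 5). An exact two-sided permutation test within replicate numbers gave p = 0.00195 (adjusted over the 2 compounds 0.00391; the smallest p possible was 0.000977). Without replicate number 3 the difference was 0.97 (exact permutation p = 0.00391, adjusted 0.00781), and that p was the smallest possible there. For 2.01 µM raloxifene the ratio was 0.11 higher (SD 0.39, positive in 4 of 5, exact permutation p = 0.455). This test was chosen after the values had been seen, in a comparison where the 2 genes had already differed. It restates that difference and is no separate support, and the adjustment over the 2 compounds does not cover the choice.

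The replicate number accounted for a large share of the spread of LIPG. Under raloxifene it took 51% of the LIPG variance (log2 scale) against 27% for the group, and under resorcinol 35.5% against 39.1%. For si:dkey-61n16.5 the group took the larger share, 48.7% against 22.6% for the replicate number under raloxifene and 72% against 13.2% under resorcinol. Pool 5 was the lowest of the LIPG control pools in both experiments, at 104 and 114 normalized counts.

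Beyond dose and replicate number, a link between the genes was not established. With group and replicate means removed, their correlation over 30 resorcinol libraries was r = 0.34 (permutation p = 0.0686, adjusted over the 2 compounds 0.137) and rho = 0.31 (p = 0.0919, adjusted 0.184, by permutation). Without the 2 libraries farthest from the LIPG median r was 0.35. Over 30 raloxifene libraries r was 0.11 (permutation p = 0.57) and rho 0.21 (p = 0.27, by permutation), with r = 0.34 without the 2 farthest. With the group means alone removed, r was 0.47 for raloxifene and 0.44 for resorcinol (adjusted permutation p = 0.0137 each), and without the 2 farthest libraries it was 0.28 and 0.22, so it rests in part on those libraries. All these permutations shuffled the 30 libraries of a compound freely. Same-number pools deviated together, so the permutation p of 0.0137 treats linked libraries as independent and was not taken as evidence.

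The genes whose pattern was most like each of the pair were ranked over the 19057 other genes kept for testing in both tables. These had at least 10 normalized counts in at least 5 libraries of each table. The measure was Pearson's r over the 30 libraries of a table with replicate means removed, and the lower of the r values of the 2 tables set the rank. The libraries share dose groups, depth and normalization, so these values are a description. The r values below give raloxifene first and resorcinol second.

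For LIPG the closest gene was zfand5a, at r = 0.82 and 0.84, which encodes an AN1-type zinc-finger protein. EIF4EBP3, a repressor of cap-dependent translation, followed at 0.78 and 0.77. SLC25A33, a mitochondrial pyrimidine nucleotide carrier, had 0.75 and 0.86. The last of the 5 were ube2al, named as a ubiquitin-conjugating enzyme, at 0.74 and 0.74 and PRELID3B at 0.73 and 0.79. The level of zfand5a was 1466 ± 142 at 20.1 µM raloxifene and 1102 ± 125 in controls, and 1321 ± 171 at 405 µM resorcinol and 1113 ± 127 in controls (SD, n = 5 each). Over the 20 libraries of the 4 lower doses, its r with LIPG was 0.69 and 0.73, while that of EIF4EBP3 was 0.68 and 0.27. These libraries are among the 30 that set the rank, so this is no separate check. The gene si:dkey-61n16.5 was rank 66 of 19057 in the LIPG order, at 0.58 and 0.68.

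For si:dkey-61n16.5 the closest gene was six7, at r = 0.85 and 0.94, a homeobox transcription factor known in zebrafish for its part in cone opsin expression. PDC (ENSDARG00000017634), whose mammalian counterpart phosducin binds G-protein subunits in photoreceptors, had 0.82 and 0.89. The calcium-binding protein gene cabp2a had 0.77 and 0.87. They were followed by atp1a3b, a subunit of the sodium-potassium pump, at 0.76 and 0.73, and the forkhead factor FOXO1 (ENSDARG00000099555) at 0.72 and 0.84. LIPG was rank 43 in this order.

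The r of six7 was as high over the 20 libraries of the 4 lower doses, at 0.84 and 0.95, and those of PDC (ENSDARG00000017634) were 0.82 and 0.87. These libraries are among the 30 that set the rank, and they include the 40.5 µM pools. The values are therefore no separate check and do not leave out the dose differences. The level of six7 was 728 ± 293 in resorcinol controls, 901 ± 197 at 40.5 µM and 1173 ± 391 at 405 µM (SD, n = 5 each). In raloxifene it was 605 ± 201 in controls, 595 ± 146 at 2.01 µM and 723 ± 187 at 20.1 µM. The ranges of mean ± SD overlap between these groups, but they ignore the replicate numbers. Each top-dose pool of either compound had more six7 than its same-number control. The fitted log2 difference from control was 0.69 at 405 µM and 0.27 at 20.1 µM, given without a test.

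**Figure D4:**
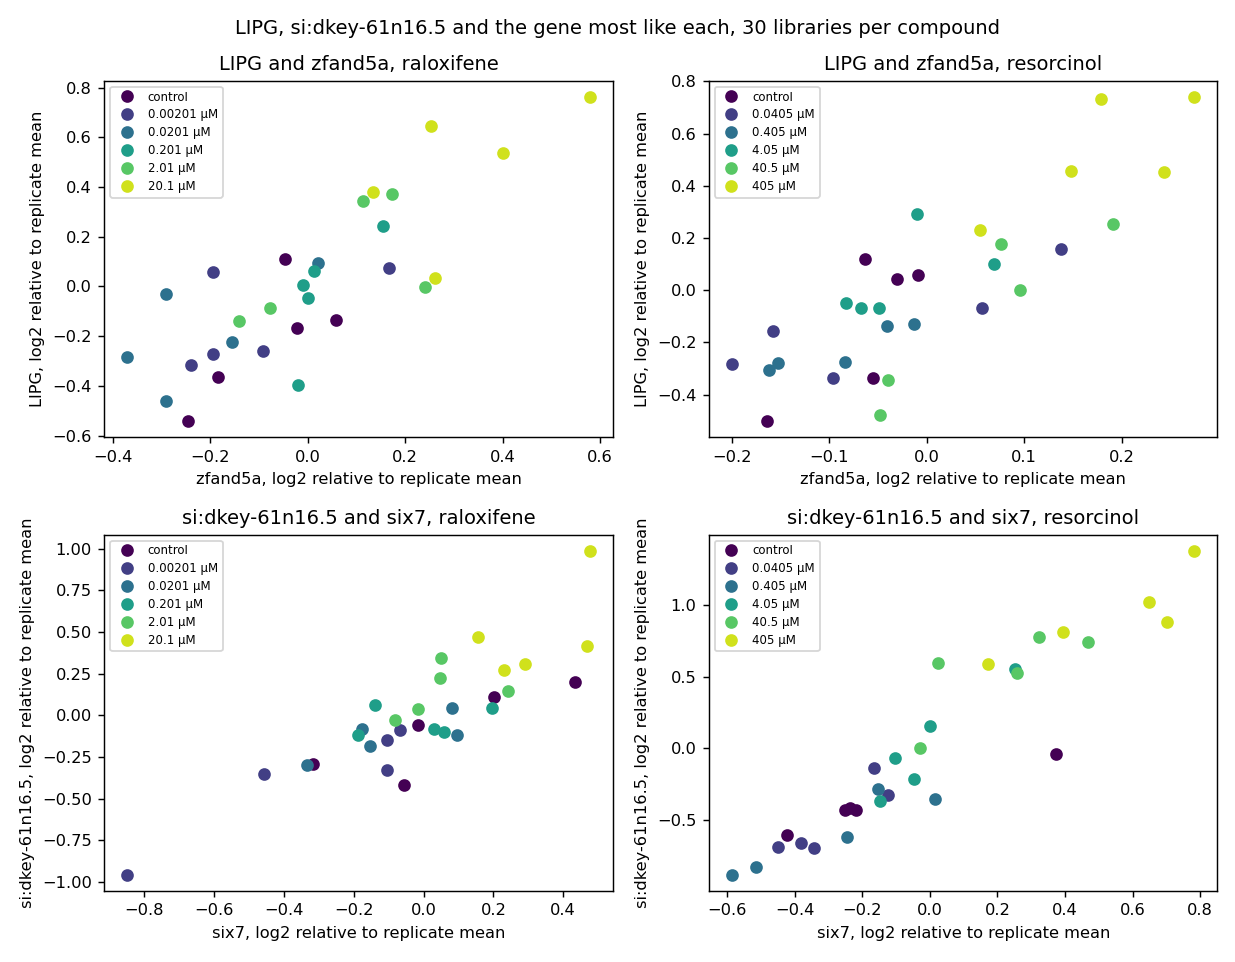
LIPG against zfand5a (top) and si:dkey-61n16.5 against six7 (bottom), each as log2(normalized count + 1) relative to the mean of its replicate number, for raloxifene (left) and resorcinol (right). Each point is 1 of 30 libraries, coloured by dose; r was 0.82 and 0.84 in the top panels and 0.85 and 0.94 in the bottom ones.

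Among the other lipases 1 gene passed the test at a top dose. The list of lipase family genes held 15 measured genes beside LIPG, and all 15 were tested. At 20.1 µM raloxifene 0 were called in either direction by limma (0 at unadjusted p under 0.05, 3 with the block), and the median log2 difference was 0.21, beside -0.011 over all genes. At 405 µM resorcinol 0 were called without the block (1 at unadjusted p under 0.05) and 1 was called higher with it (6 at unadjusted p under 0.05), where 0.174% of all genes were called higher, and the median was 0.011, beside 0.0011 over all genes. That gene was CEL (ENSDARG00000017490), the bile salt-dependent lipase secreted by the pancreas in mammals. It averaged 602 ± 337 at 405 µM and 304 ± 194 in controls (SD, n = 5 each, log2 1.13, adjusted p = 0.0483 with the block). Its call with the block was lost when pools numbered 1, 2, 3 or 4 were left out (adjusted p = 0.313, 0.212, 0.129 and 0.0749). Without control replicate 4 the log2 difference of CEL was 0.55 in the fit without the block. Over all genes, limma with the block gave an unadjusted p under 0.05 for 2363 of 19241 at 20.1 µM. At 405 µM it did so for 2109 of 19583. Without the block these counts were 446 and 302. They are the background for the top-dose counts of every list here.

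The closest relatives of LIPG are the lipoprotein lipase and hepatic lipase genes. LPL (ENSDARG00000087697), lipoprotein lipase, averaged 1355 ± 395 at 20.1 µM raloxifene and 1415 ± 423 in controls, and 1878 ± 326 at 405 µM resorcinol and 1558 ± 374 in controls (SD, n = 5 each). Neither difference was called (log2 -0.055 and 0.29, adjusted p = 0.829 and 0.226 with the block by limma). The second LPL gene (ENSDARG00000098720) and LIPC, hepatic lipase, were low, at 7.77 to 14.3 normalized counts in the control and top-dose groups, and LIPA, the lysosomal acid lipase, averaged 201 to 250.3. None of them was called at the top or second-highest doses.

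Lipase regulators, which include the angiopoietin-like inhibitors, had 19 measured and 17 tested genes. None was called at either top dose by limma (0 at unadjusted p under 0.05, and 5 and 4 with the block); the medians were 0.078 for raloxifene and 0.0039 for resorcinol. Of 36 measured genes for lipoprotein particles, lipid carriers and receptors, 35 were tested. At 20.1 µM raloxifene 0 of them were called without the block and 3 were called lower with it, where 0.385% of all genes were called lower (0.0416% without the block). The list's median was -0.017.

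These 3 genes were FABP6, FABP1 and CETP. FABP6, an ileal bile acid-binding protein, averaged 2664 ± 901 at 20.1 µM and 5284 ± 2575 in controls (SD, n = 5 each, log2 -0.93, adjusted p = 0.000489 with the block). FABP1 (ENSDARG00000059227), a fatty acid-binding protein, averaged 401 ± 321 at 20.1 µM and 935 ± 983 in controls (log2 -1.0, adjusted p = 0.0318 with the block). CETP, the cholesteryl ester transfer protein, averaged 43.6 ± 74.8 and 67.9 ± 102 in the same groups (log2 -0.87, adjusted p = 0.0225 with the block). FABP6 kept its call in 5 of 5 fits that left out 1 replicate number. FABP1 lost it without number 1, 3 or 4 (adjusted p = 0.153, 0.163 and 0.213), and CETP lost it without 1, 3, 4 or 5 (adjusted p = 0.124, 0.113, 0.107 and 0.104). In the fit without the block, single libraries moved these values. FABP1 was -0.48 without control replicate 4, and -0.66 and -0.67 without treated replicates 3 and 5. CETP was -0.15 without control replicate 4, -0.51 without treated replicate 5 and -1.68 without treated replicate 4. At 405 µM resorcinol 0 lipoprotein genes were called (0 at unadjusted p under 0.05, 10 with the block), where 0.153% of all genes were called lower with the block and 0.0255% without; the list's median was 0.097.

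Markers of cell types that could carry LIPG or digest lipids were measured in the same pools. The 16 endothelium markers summed to 1353 ± 143 (1197 to 1531) at 20.1 µM raloxifene and 1426 ± 186 (1208 to 1641) in controls. At 405 µM resorcinol they summed to 1678 ± 117 (1560.1 to 1858), against 1602 ± 94.9 (1505 to 1714) in controls (SD, n = 5 each). Of these markers 14 were tested for raloxifene and 15 for resorcinol. None was called at a top dose by limma (0 and 1 at unadjusted p under 0.05, and 1 and 2 with the block). At 20.1 µM 8 of 14 lay above 0 (median log2 0.032, beside -0.011 over all genes). At 405 µM 11 of 15 did (median 0.11, beside 0.0011). None of the 16 was at 0 throughout a group.

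Exocrine pancreas markers were higher at both top doses in all tested genes by sign, 11 of 11 for raloxifene (median log2 0.75) and 12 of 12 for resorcinol (0.99). The 13 markers summed to 16521 ± 15129 (2744 to 39867) at 20.1 µM and 9494 ± 8414 (1928 to 20824) in controls, and to 25959 ± 9587 (9239 to 33236) at 405 µM and 14970.4 ± 8341 (4471 to 25743) in controls. With the block the digestive protease gene ctrl was called higher for raloxifene (log2 0.99, adjusted p = 0.0327). Limma with the block gave an unadjusted p under 0.05 for 9 of 11 markers at 20.1 µM and for 12 of 12 at 405 µM. Over all genes these counts were 2363 of 19241 and 2109 of 19583. Without the block limma called 0 of these markers for either compound, and 0 had an unadjusted p under 0.05. At 40.5 µM, where si:dkey-61n16.5 was high, 4 of 12 were above control. The part of these cells in the LIPG and si:dkey-61n16.5 values was not tested.

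Enterocyte markers had a median of -0.42 at 20.1 µM raloxifene, with 2 of 12 called lower with the block, where 0.385% of all genes were, and 0 without it (2 at unadjusted p under 0.05 by limma). These were the brush-border peptidase genes ANPEP (ENSDARG00000103878; log2 -1.04, adjusted p = 0.000686) and MEP1B (ENSDARG00000040683; -0.73, adjusted p = 0.00429). The 12 markers summed to 4813 ± 2236 (2412 to 7897) at 20.1 µM and 6307 ± 3731 (3162 to 12775) in controls; at 405 µM resorcinol 0 were called (0 at unadjusted p under 0.05 by limma, 5 with the block) and the median was 0.11. Of 14 tested hepatocyte markers, 1 was called lower at 20.1 µM with the block, where 0.385% of all genes were, and 0 without it. This was uox, the urate oxidase gene (log2 -0.99, adjusted p = 0.0224). It averaged 83.2 ± 155 at 20.1 µM and 123 ± 204 in controls (SD, n = 5 each). Of the 14 markers 5 lay above 0 (median log2 -0.19). The 15 measured markers summed to 15524 ± 12071 at 20.1 µM and 13535 ± 10850.4 in controls, where 1 was at 0 throughout. At 40.5 µM resorcinol TTR, transthyretin, was called lower than at the 3 lower doses with the block (log2 -0.88, adjusted p = 0.0207), in a comparison where 0.102% of all genes were called lower. In that comparison si:dkey-61n16.5 was called higher with the block. There 0 of the 14 hepatocyte markers lay above 0 (median log2 -0.30, beside -1.2e-05 over all genes). By limma 6 of them had an unadjusted p under 0.05 with the block, and 0 without it. Over all genes 1322 of 19583 had such a p with the block, and 182 without it. The 15 measured markers summed to 16370.3 ± 10708 (7440.5 to 34340.3) at 40.5 µM, against means of 16662 to 17829 at the 3 lower doses, and none was at 0 throughout a group. Their part in the si:dkey-61n16.5 value was not tested. Of 11 tested macrophage and neutrophil markers 0 were called at the top doses (0 at unadjusted p under 0.05 by limma, and 3 and 0 with the block); their medians were 0.23 and -0.053.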

How the data were processed

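RNA sequencing of 60 zebrafish libraries was deposited as 2 tables, 1 per compound. Per the file headers and values, the deposited unit is a signal: read counts per Ensembl gene that the authors divided by 1 factor per library. Per the submitters' processing notes, cutadapt, STAR and DESeq2 were used on GRCz11. No source used here names their versions, the counting tool, its strand setting or the annotation release. At a tolerance of 0.1 read, 100.0% of values came out as whole reads. Symbols came from a reference name table (24960 of 27281 and 25126 of 27488 identifiers).

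Values were analysed as log2(normalized count + 1), a scale that understates changes of low genes, with limma 3.58.1 (intensity trend, R 4.3.3). All 30 libraries of a compound entered 1 fit of 6 group means. Genes with at least 10 in at least 5 libraries were kept (19241 and 19583), and a Benjamini-Hochberg adjusted p under 0.05 over all of them made a call. A count model was planned; edgeR 4.0.16 and DESeq2 1.42.0 were run on recovered reads as alternatives. Same-number pools deviated together (lowest r 0.344 for raloxifene, 0.194 for resorcinol, 75 pairs each), which is taken from the data, as the labels do not explain the numbers. The tests were also run on simulated counts with planted changes, and the outcome is not given here. No 2 libraries of a group agreed within sampling noise (chi-square per degree of freedom of at least 4).

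The genes, lists, tests and naming rules (listed genes called at a top or second-highest dose, LPL, LIPC and LIPA, and the 5 most alike genes) were chosen with earlier results of these data known. No sequences were used, and coordinates served only to order genes when the neighbours of LIPG were found. The result of 1 listed gene is not reported here.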

Additional observations from a re-analysis of the deposited data

Results flagged for a closer look

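At 20.1 µM raloxifene, si:dkey-61n16.5 in replicate 1 had 718 normalized counts, far above the other 4 pools of its group, which had 323 to 380.1. Its gap to the nearest pool was 0.856 of the group's range. This was the only such value among 24 combinations of gene and group, and chance gives about 1 in 20. The control pool with the same number was also the highest of its group, at 417.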

How the results depend on the processing

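The 4 top-dose differences kept their sign in all 96 alternatives. As the genes were chosen by these differences, that is a description and no separate support. The call of si:dkey-61n16.5 at 405 µM without the block was lost when control replicate 1, 2, 3 or 5 was left out. In each of those fits 0 genes were called higher. The 20 differences at lower doses kept sign and call in 468 of 520 alternatives. None of them was called in the fit without the block, so keeping the call meant staying uncalled. The calls with the block that were lost without 1 replicate number therefore count here as kept. Calls were gained for si:dkey-61n16.5 at 40.5 µM resorcinol. Against control this was 0.91 with the replicate block, and 1.04 with it and without replicate 3 of 40.5 and 4.05 µM (chosen after seeing the data, as was edgeR with the block). Against the 3 lower doses it was 0.89 with the replicate block, 0.91 by DESeq2, 0.90 by edgeR with the block and 1.06 without those libraries, with or without the block. Leaving out 1 replicate, with or without the block, gave 0.79 to 1.08 in each of these comparisons. At the top doses, which chose the genes, the block gave the calls of LIPG for both compounds and of si:dkey-61n16.5 for raloxifene. It changed no other call of the 2 genes.

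Differences near 0 changed sign. For LIPG they were -0.0048 at 0.00201 µM raloxifene by DESeq2, -0.038 by edgeR and -0.033 by DESeq2 at 0.0201 µM, and 0.00047 at 0.0405 µM resorcinol after quantile normalization. With 1 replicate left out, LIPG ranged over -0.11 to 0.26 and -0.14 to 0.23 at the 2 lowest raloxifene doses. It ranged over -0.21 to 0.096 at 0.0405 µM, -0.031 to 0.25 at 4.05 µM and -0.15 to 0.20 at 40.5 µM resorcinol, and -0.12 to 0.15 for 40.5 µM against the lower doses. For si:dkey-61n16.5 the ranges were -0.16 to 0.12 at 0.0201 µM and -0.07 to 0.21 at 0.201 µM raloxifene, and -0.23 to 0.051 at 0.0405 µM resorcinol. The correlation of the genes was 0.47 and 0.44 with group means alone removed. The causes were not tested.

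Counts of called genes depended most on the replicate block. At 20.1 µM raloxifene 18 genes were called, 242 with the block and 28 by DESeq2. At 405 µM resorcinol 6 were called, 64 with the block and 16 by DESeq2. At 40.5 µM 1 was called, 13 with the block, 0 by edgeR and 2 by DESeq2, and against the lower doses 3, with 22 with the block and 0 by edgeR. At 0.00201, 0.201 and 2.01 µM raloxifene 0 became 19, 3 and 4, and 10 for 2.01 µM against the lower doses. Leaving out 1 library moved the count at 405 µM to 1 (control replicates 1, 2 and 3, treated replicates 1 and 3), 2 (control replicate 4, treated replicate 5) or 10 (4.05 µM replicate 3). At 20.1 µM it was 11 without control replicate 3 or treated replicate 2. With the block and without 1 replicate number it was 11 to 58 at 405 µM (11, 13 and 27 without numbers 1, 2 and 5) and 118 to 227 at 20.1 µM (118 to 147 without number 2, 3, 4 or 5). At 40.5 µM against control it was then 0 without number 1, 2, 4 or 5 and 42 without number 3, and in the fit without the block it was 9 and 4 without replicate 3 of 40.5 and of 4.05 µM. Without replicate 3 of 40.5 and 4.05 µM, 11 genes were called at 40.5 µM against control and 45 with the block, and 15 and 69 against the lower doses. For list genes the block gave the calls at -1.0 (FABP1), -0.87 (CETP), -0.93 (FABP6) and 1.13 (CEL).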

Other observations

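In the gene order of GRCz12tu, an assembly other than the one used for the reads, the nearest protein-coding genes to LIPG are IPO11 and mthfd2l. IPO11, a nuclear import receptor, averaged 235 ± 19.0 normalized counts at 20.1 µM raloxifene and 197 ± 17.6 in controls, and 248 ± 18.1 at 405 µM resorcinol and 207 ± 24.0 in controls (SD, n = 5 each). Neither difference was called by limma (log2 0.25 and 0.26, adjusted p = 0.128 and 0.258 with the block). The mitochondrial folate enzyme gene mthfd2l was low, at 7.59 ± 3.21 and 8.28 ± 3.29 for raloxifene and 14.5 ± 5.90 and 18.4 ± 7.10 for resorcinol, with the top dose before its control, and was not called (log2 -0.12 and -0.37). The gene si:dkey-61n16.5 had no match in that table, so its neighbours were not analysed here.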
